A study of Mus musculus with 2 samples.

Results

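Chromatin accessibility was examined at 8 genes that mark cholangiocytes, the epithelial cells of the bile ducts, and the ductular reaction, in which such cells expand in injured liver. The genes are Sox9, Krt7, Krt19, Krt8, Krt18, Epcam, Spp1 and Cd24a. They were chosen by name, and their accessible regions were chosen by the rule that the closest transcription start site (TSS) in the table of regions is that of a listed gene, at any distance. This rule found 18 of the 69549 distinct regions, closest to 6 of the 8 genes. No region was listed for Krt7 or Krt19. The others stand in the table as Sox9 (ENSMUSG00000000567), Krt8 (ENSMUSG00000049382), Krt18 (ENSMUSG00000023043), Epcam (ENSMUSG00000045394), Spp1 (ENSMUSG00000029304) and Cd24a (ENSMUSG00000047139).

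ATAC-seq counts reads that the Tn5 transposase releases from accessible DNA. Liver nuclei were studied in C57BL/6 mice on normal chow at 8 weeks of age. All mice carried homozygous floxed Mettl3, and the Mettl3-HKO mice carried in addition 1 Alb-Cre allele, in which the albumin promoter directs Cre recombinase to hepatocytes and not by intent to bile duct cells. The livers of 4 mice were pooled into 1 library per group, so there is no replicate error. Mettl3 flox/flox is called the control here, and each comparison is of its library with that of Mettl3-HKO. Each interval given is at 95%, from the exact binomial (Clopper-Pearson) limits of how a region's reads divide between control and Mettl3-HKO, and covers counting error only. Since pooled whole liver was used, fewer cells of a type and less accessibility per cell cannot be told apart.

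Bile ducts are lined by a simple epithelium that carries bile out of the liver. SOX9 is a transcription factor of the biliary lineage, and keratins 7 and 19 are intermediate filament proteins that separate cholangiocytes from hepatocytes. Keratins 8 and 18 pair in filaments of both hepatocytes and cholangiocytes. EPCAM is an epithelial adhesion molecule, SPP1 (osteopontin) a secreted matrix protein that macrophages also make, and CD24 a surface glycoprotein found on leukocytes too.

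Counts were scaled by library totals of 52826202 (control) and 58038305 (Mettl3-HKO), of which 31.7% and 22.3% lay in the listed regions. On this scale the ratio of Mettl3-HKO to control, as log2, had a median of −0.38 over all regions and −0.56 over the 14387 promoter regions, those whose centre lay within 1 kb of the TSS. A log2 ratio of 0 is therefore above the typical region, and values relative to the median of all regions are given where the sign depends on it. The Mettl3 promoter region had 566 and 392 counts, which does not check the deletion. All 8 hepatocyte markers examined, Alb and Apoa1 among them, had a promoter region, as had 7 of 8 endothelial, 1 of 8 macrophage, 2 of 8 stellate and 0 of 8 lymphocyte markers. Summed over their regions, the hepatocyte markers had 27837 and 22467 counts, the stellate markers 783 and 281 and the lymphocyte markers 68 and 106. Reln held 690 and 132 of the stellate counts, and the other stellate markers with a region, Col1a1 (37 and 43) and Acta2 (56 and 106), did not share its direction. Cholangiocyte identity rested on few regions, since the defining keratins Krt7 and Krt19 had none, while Krt8 and Krt18, which hepatocytes share, held 73.6% of the counts of the 18 regions in control and 69.7% in Mettl3-HKO.

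Sequences upstream of 4 of the genes are shown because they separate promoters inside a listed region from promoters outside any. Each is the 250 bases before the RefSeq gene start on GRCm38.p6, 5′ to 3′ on the strand of the gene. Krt8 lies at chr15:102004343-102004592 on the minus strand and Krt18 at chr15:102027966-102028215 on the plus strand. Krt7 lies at chr15:101412153-101412402 and Spp1 at chr5:104434861-104435110, both on the plus strand. Capitals mark letters of the motifs searched, and 5 of the 8 genes had such a window in the RefSeq table.
Krt8: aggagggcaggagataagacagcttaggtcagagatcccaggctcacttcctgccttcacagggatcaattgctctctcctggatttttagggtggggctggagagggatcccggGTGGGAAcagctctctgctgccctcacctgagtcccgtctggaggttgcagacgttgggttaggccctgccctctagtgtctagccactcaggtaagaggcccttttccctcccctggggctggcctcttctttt
Krt18: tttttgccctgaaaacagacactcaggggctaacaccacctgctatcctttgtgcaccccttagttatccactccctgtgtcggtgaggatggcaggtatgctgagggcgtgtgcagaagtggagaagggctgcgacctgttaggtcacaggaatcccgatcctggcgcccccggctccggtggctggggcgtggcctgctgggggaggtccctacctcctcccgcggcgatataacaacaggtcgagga
Krt7: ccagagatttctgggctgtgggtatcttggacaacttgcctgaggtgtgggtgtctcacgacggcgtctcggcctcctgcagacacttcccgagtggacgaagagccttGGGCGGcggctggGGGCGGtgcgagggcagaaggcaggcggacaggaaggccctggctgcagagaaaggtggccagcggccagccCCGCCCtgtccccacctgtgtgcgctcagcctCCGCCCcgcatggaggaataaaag
Spp1: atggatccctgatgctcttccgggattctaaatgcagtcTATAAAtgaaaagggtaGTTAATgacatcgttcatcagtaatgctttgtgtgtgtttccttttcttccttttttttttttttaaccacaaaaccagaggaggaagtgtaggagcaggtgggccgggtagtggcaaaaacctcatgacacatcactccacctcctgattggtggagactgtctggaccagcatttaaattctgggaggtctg

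All 250 bases of the Krt8 sequence and 203 of the 250 bases of the Krt18 sequence lay in a listed region, and 0 bases of the Krt7 and Spp1 sequences did. The GC content was 58.0% for Krt8, 60.4% for Krt18, 66.0% for Krt7 and 43.6% for Spp1, against a median of 52.4% over all 32851 such windows. Krt7, without a region, thus had the highest GC content of the 4 and 16 CpG dinucleotides, against 3 in Krt8 and 12 in Krt18. The letters of 9 motifs were searched on both strands of the windows of 300 bases, which extend 50 bases past the start. The letters of RBPJ, the DNA-binding partner of Notch, are GTGGGAA. They matched at Krt8 and are in 6.38% of all windows. The SP/KLF letters, GGGCGG, matched 4 times at Krt7 and once at Epcam, and are in 35.7% of all windows. At the upstream start of Spp1 the HNF1 letters GTTAAT matched, which 7.10% of all windows hold, and so did the letters TATAAA of the TATA box, which 13.6% hold. At Krt8 the letters of the TATA box matched on both strands, in overlapping matches that cross the annotated start and so are not in capitals. A second Spp1 window, which ends at the TSS of the table, and that of Krt18 had no match. No match was found at these genes for the letters GGAATG of TEAD (in 14.7% of all windows), TGANTCA of AP-1 (7.81%), TGTTTAC of FOXA (3.65%), AACAAAG of the SOX factors (5.85%) or CAAAGTC of HNF4 (4.44%). A match describes letters in the window and is not evidence of binding.

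The table lists only regions with a peak in at least 1 library, so a gene without a region had no called peak, which does not show closed chromatin. No region overlapped the body of Krt7 on chromosome 15 from 101412403 to 101427806, and the nearest lay 91.3 kb away, with 22 counts in control and 48 in Mettl3-HKO. Around Krt19 on chromosome 11 from 100140810 to 100145926 there was none within 100 kb. The nearest lay 170 kb away and was closest to Eif1, with 234 and 104 counts. Cd24a had no promoter region, and its single region lay 4.0 kb upstream. The other 5 genes had 1 promoter region each, beside 2 further regions for Sox9, 3 for Krt8, 4 for Krt18, 2 for Epcam and 1 for Spp1.

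**Figure D1:**
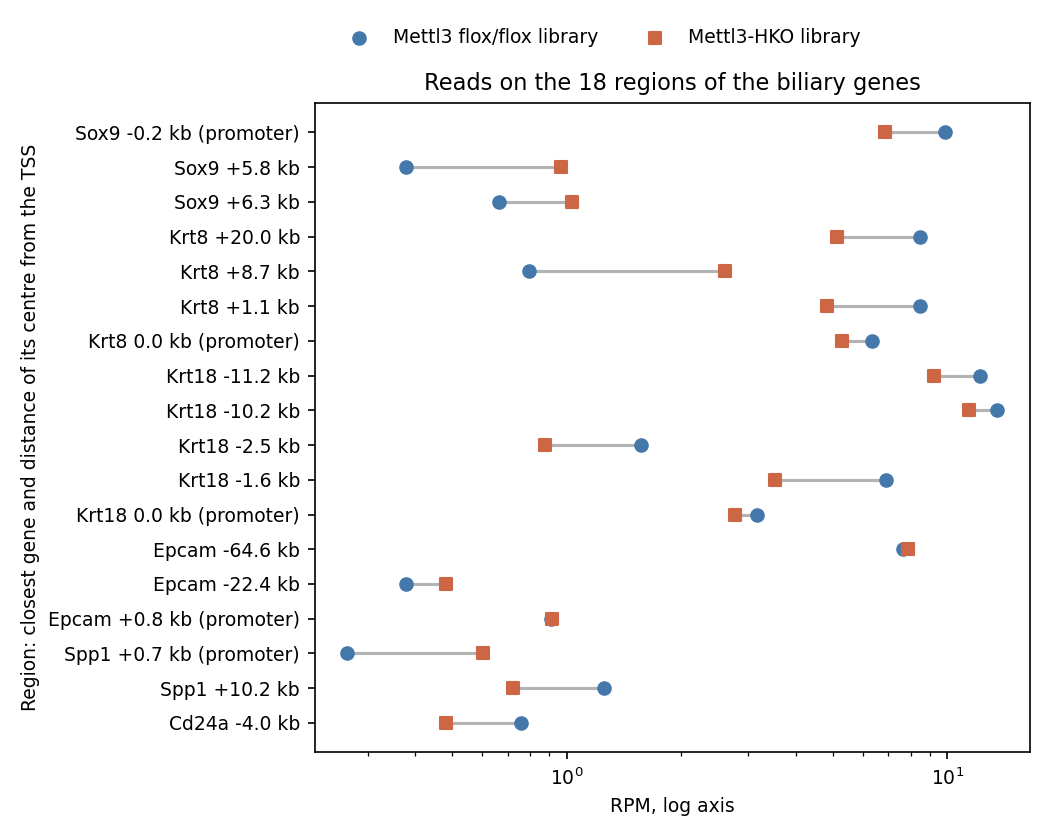
RPM (counts scaled to library size, log axis) of the 18 regions in control (circles) and Mettl3-HKO (squares), with the closest gene and the distance of the region centre from the TSS. Levels span from 0.265 RPM at Spp1 to 13.5 RPM between Krt8 and Krt18, and the widest gap between the libraries on the log axis is that of the region 8.7 kb from the Krt8 TSS, at 0.795 and 2.60 RPM.

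Sox9 had a broad promoter region and a pair of weak regions past its end, and these differed in direction. The promoter region on chromosome 11 from 112781153 to 112782873 spans 1721 bp and ends in exon 1. It had 520 counts in control and 397 in Mettl3-HKO, or 9.86 and 6.86 RPM, counts scaled to library size. Its log2 ratio was −0.52 (95% interval −0.72 to −0.33), close to the median of all promoter regions. The region from 112787827 to 112788201, which begins 67 bp past the 3′ end of Sox9, had 19 counts in control and 55 in Mettl3-HKO, or 0.379 and 0.965 RPM. A peak was called there in Mettl3-HKO alone, and the log2 ratio was 1.35 (0.62 to 2.23). Its neighbour from 112788362 to 112788656, 602 bp past the 3′ end, had a peak in both, with 34 counts in control, 59 in Mettl3-HKO and a log2 ratio of 0.64 (0.027 to 1.31). Summed over the 3 regions, Sox9 had 573 and 511 counts, a log2 ratio of −0.30 (−0.48 to −0.13), which became 0.076 relative to the median of all regions.

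Krt8 and Krt18 encode a keratin pair and lie head to head on chromosome 15, with 23.9 kb between their TSSs. Their 9 regions carried most of the reads of the listed genes. The strongest were 2 neighbouring regions in the interval between the genes, from 102016591 to 102017362 and from 102017608 to 102018362. They lay 11.2 and 10.2 kb upstream of Krt18, to which they are assigned, but also 12.6 and 13.6 kb upstream of Krt8. The first had 642 and 534 counts and the second 713 and 659, in control and Mettl3-HKO. In fold enrichment, the reads per base of a region over those of the genome, they stood at 43.1 and 48.9 in control and at 32.6 and 41.1 in Mettl3-HKO. The second was thus at the 93.2nd percentile of all regions in the former and the 96.7th in the latter. Their log2 ratios were −0.40 (−0.57 to −0.23) and −0.25 (−0.40 to −0.095), on either side of the median of all regions.

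At the TSSs of the keratin pair, the promoter regions had ratios close to 0. The Krt8 promoter region from 102003994 to 102004674, centred in exon 1, had 333 and 306 counts and a log2 ratio of −0.26 (−0.49 to −0.029). The Krt18 promoter region from 102028013 to 102028365, which ends in exon 1, had 166 and 160 counts and a log2 ratio of −0.19 (−0.51 to 0.13). Both signs turned relative to the median of all regions, to 0.12 (−0.11 to 0.35) for Krt8 and 0.19 (−0.13 to 0.51) for Krt18. These are the sequences printed above that lie in listed regions.

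The regions beside these promoters were lower in Mettl3-HKO. In intron 1 of Krt8, from 102002894 to 102003507, counts were 447 and 279, a log2 ratio of −0.81 (−1.04 to −0.60). Upstream of Krt18, the region from 102026424 to 102026884 had 363 and 204 counts, a log2 ratio of −0.96 (−1.22 to −0.72), the lowest of the 18. The region from 102025640 to 102025862, at 82 and 50 counts, had a ratio of −0.84 (−1.39 to −0.32) and was the single region of the 18 with a peak in control alone. The far region beyond the 3′ end of Krt8, 20.0 kb from its TSS, from 101983956 to 101984692 had 446 and 297 counts, a ratio of −0.72 (−0.94 to −0.51). Relative to the median of all regions, the intervals of the first 2 and of this last region stayed below 0, at −0.44 (−0.66 to −0.22), −0.59 (−0.84 to −0.34) and −0.34 (−0.56 to −0.13), whereas that of the 82-count region reached 0.053.

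A further Krt8 region went the other way. It lies on chromosome 15 from 101995427 to 101995904 and begins 807 bp past the 3′ end of Krt8. It had 41 counts in control, without a peak, and 150 in Mettl3-HKO, with a peak. The log2 ratio of 1.71 (1.23 to 2.27) was the highest of the 18, or 3.27-fold, and its fold enrichment was 4.54 and 14.9. The other 3 were lower, and the summed counts of Krt8, at 1267 and 1032, gave a log2 ratio of −0.43 (−0.55 to −0.31). Those of Krt18, at 1966 and 1607, gave −0.43 (−0.52 to −0.33). Relative to the median of all regions both sums were near 0, at −0.054 (−0.17 to 0.065) and −0.049 (−0.15 to 0.047).

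**Figure D2:**
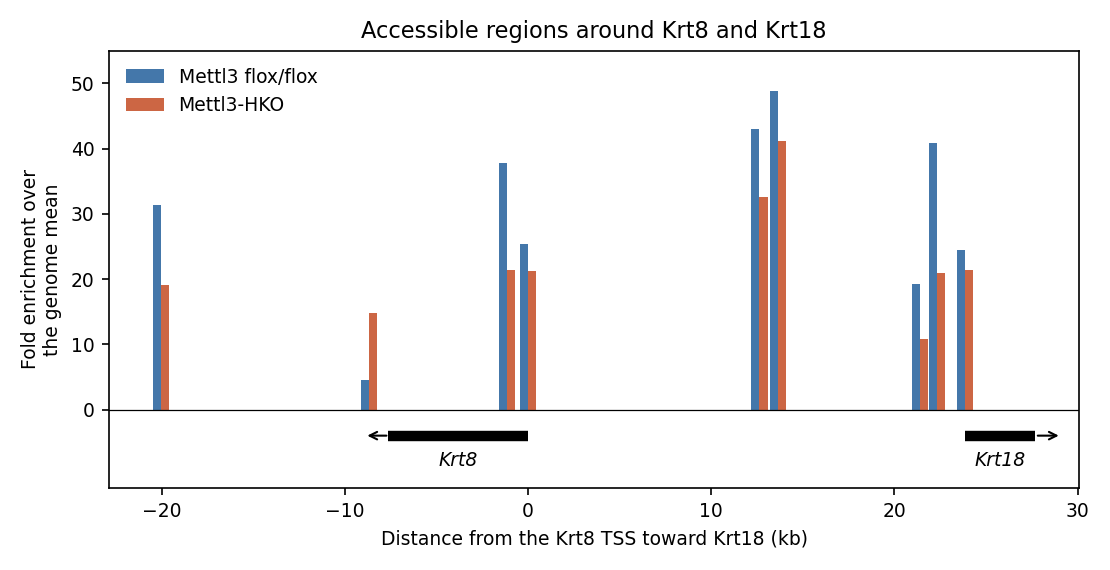
Fold enrichment over the genome mean (y axis) of the 9 regions of Krt8 and Krt18, placed by the distance of their centres from the Krt8 TSS toward Krt18 (x axis, kb), with control left and Mettl3-HKO right in each pair of bars. Black bars mark the genes and arrows their direction. The highest pair, 43.1 and 48.9 in control, stands between the genes, and the region 8.7 kb from the Krt8 TSS is the single one that is higher in Mettl3-HKO.

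The intervals of all 3 Epcam regions held 0, and their log2 ratios were above the median of all regions. Its promoter region on chromosome 17 from 87636479 to 87637037 runs from the 5′ UTR into intron 2, 778 bp from the TSS, and outside the window of 250 bases before the start. It had 47 and 52 counts, or 0.909 and 0.913 RPM, and a log2 ratio of 0.0072 (−0.59 to 0.61). The strongest Epcam region lies 64.6 kb upstream, from 87570699 to 87571963, and had 402 and 456 counts, a ratio of 0.046 (−0.15 to 0.24). Relative to the median of all regions it stood at 0.42 (0.23 to 0.62). The third, from 87613385 to 87613719, had 19 and 27 counts and a peak in Mettl3-HKO alone, and its ratio of 0.35 (−0.53 to 1.30) could not be told from 0 with so few counts. The sum of the 3 regions was 468 and 535 counts, a log2 ratio of 0.057 (−0.12 to 0.24), the highest sum among the 6 genes by the rule used.

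Spp1 and Cd24a had few reads. The Spp1 region that counts as promoter, on chromosome 5 from 104436808 to 104437011, lies in intron 2 and 717 bp from the TSS in the table. RefSeq starts the gene 1081 bp further upstream, so that this region is 1798 bp from the RefSeq start whose sequence is printed above. It had 13 counts in control, without a peak, and 34 in Mettl3-HKO, with a peak, and its log2 ratio was 1.19 (0.29 to 2.30). The other Spp1 region, from 104446271 to 104446585 and beyond the gene, had 65 and 41 counts, a ratio of −0.79 (−1.40 to −0.21). The sum, 78 and 75 counts, gave −0.19 (−0.67 to 0.28), an interval too wide to show a difference. A region 35.3 kb upstream, from 104399219 to 104399828, with 48 and 66 counts, is closest to a gene without a symbol that overlaps Spp1, and is not counted here. With it, a choice made after the data were seen, the ratio of the Spp1 sum was 0.027 (−0.33 to 0.38). Of 8 macrophage markers, cells that also make SPP1, 5 had a region, with 758 and 387 summed counts and a median log2 ratio of 0.36 over 8 regions. Marco held 463 and 35 of these counts, C1qa had 8 and 40, and Cd68, Timd4 and Vsig4 had no region. Their part in the Spp1 values was not tested. The Cd24a region on chromosome 10 from 43575027 to 43575310 had 39 and 27 counts, a ratio of −0.65 (−1.43 to 0.079).

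**Figure D3:**
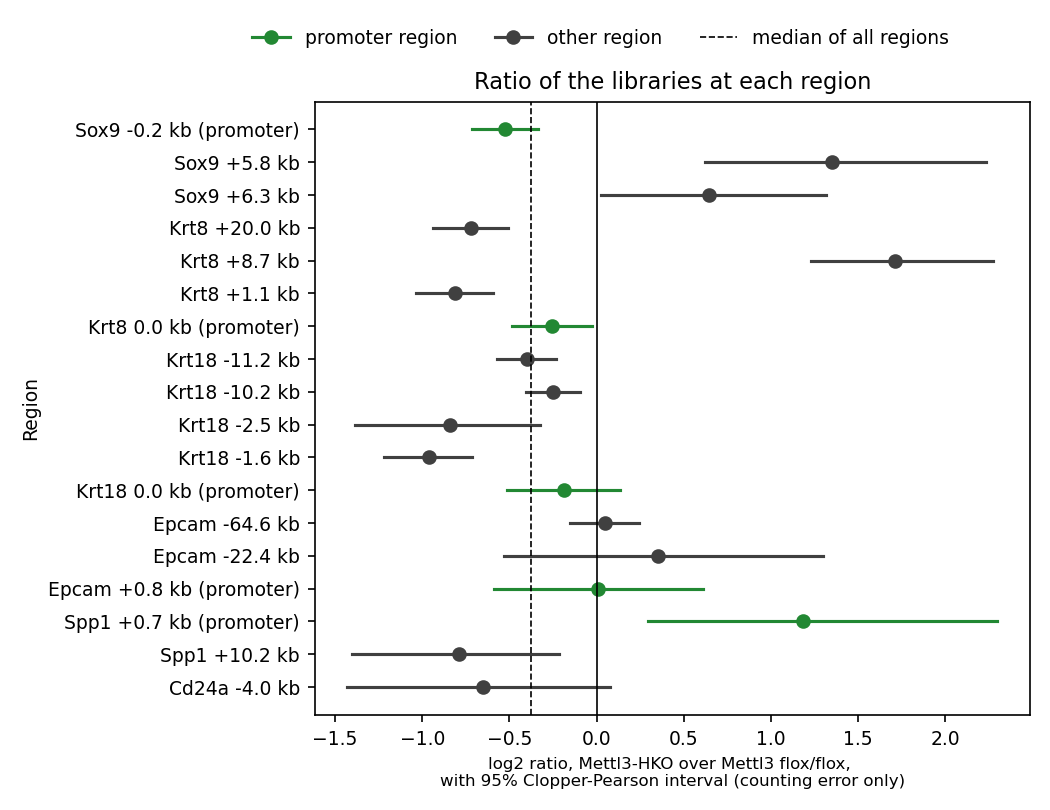
Log2 ratio of Mettl3-HKO to control (x axis) of each region (y axis), with 95% intervals for counting error. Green marks promoter regions, the solid line stands at 0 and the dashed line at the median of all regions, −0.38. The 3 points beyond 1 belong to Sox9, Krt8 and Spp1, and the intervals widen toward the regions with few counts.

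Across the 18 regions, 3 were at least 2-fold higher in Mettl3-HKO (16.7%), against 13.2% of all regions, and 0 were at least 2-fold lower, against 18.3% of all regions. The 3 were the Sox9 region next to its 3′ end, the Krt8 region past its 3′ end and the Spp1 promoter region. The last was under 2-fold, at 0.80, with 10 reads added in place of 1. With ratios taken relative to the median region, the counts were 4 and 0, against 20.0% and 7.89% of all regions, with the second Sox9 region past the 3′ end added. By the interval, 4 regions lay above 0 (22.2%, against 21.1% of all regions) and 9 below 0 (50%, against 48.7%), shares near those of the whole table. Relative to the median of all regions the interval lay above for 5 (27.8%, against 32.7%) and below for 3 (16.7%, against 30.7%). A peak was called in both libraries at 13 of the 18 regions, against 61.7% of all regions, in Mettl3-HKO alone at 4 (22.2%, against 21.5% of all regions) and in control alone at 1 (5.56%, against 16.8%).

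The median log2 ratio of the 18 regions was −0.25, against −0.38 for all regions, and the summed counts of 4391 and 3787 gave −0.35 (−0.41 to −0.29), or 0.028 (−0.035 to 0.091) relative to the median of all regions. Without Krt8 and Krt18 the sum of the other 9 regions gave −0.15 (−0.27 to −0.029) and their median was 0.046. Relative to the median of all regions the sign of that sum turned, to 0.23 (0.11 to 0.35). The 5 promoter regions together had 1079 and 949 counts, a ratio of −0.32 (−0.45 to −0.19), and each of the 5 was above the promoter median of −0.56. Of these promoter regions 1 was at least 2-fold higher, that of Spp1, against 4.07% of all promoter regions, and 0 were at least 2-fold lower, against 16.3%. The interval of 1 lay above 0 (Spp1), against 8.08% of all promoter regions, and those of 2 below 0 (Sox9 and Krt8), against 72.4%. With so few regions these shares say little about the genes as a group.

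Over the whole table, regions with fewer reads had higher ratios, and the listed genes were set beside regions of like count. The 6 regions with under 100 counts in both libraries together had a median log2 ratio of 0.50, against 0.24 for the 22431 regions of the table with so few. The 9 regions with 200 counts or more had a median of −0.40, against −0.59 for 31244 regions. The 3 between had −0.79, against −0.18 for 15874 regions, and comprised the Krt8 region at 1.71 and the regions of Krt18 and Spp1 at −0.84 and −0.79. All 3 regions that were at least 2-fold higher had under 200 counts in both libraries together. Of the 4 regions with an interval above 0, 3 begin within 1 kb past a 3′ end, that of Krt8 and the neighbouring pair of Sox9. How often this holds for all regions with an interval above 0 was not tested. Of the 69549 regions, 807 begin within 1 kb past the 3′ end of their closest gene, with a median of −0.34. Against 13.2% and 18.3% of all regions, 14.9% of the 807 rose by 2-fold or more and 19.1% fell by as much. Their median was 0.22 with under 100 counts, the class of both Sox9 regions, and −0.20 from 100 to under 200, the class of the Krt8 region.

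**Figure D4:**
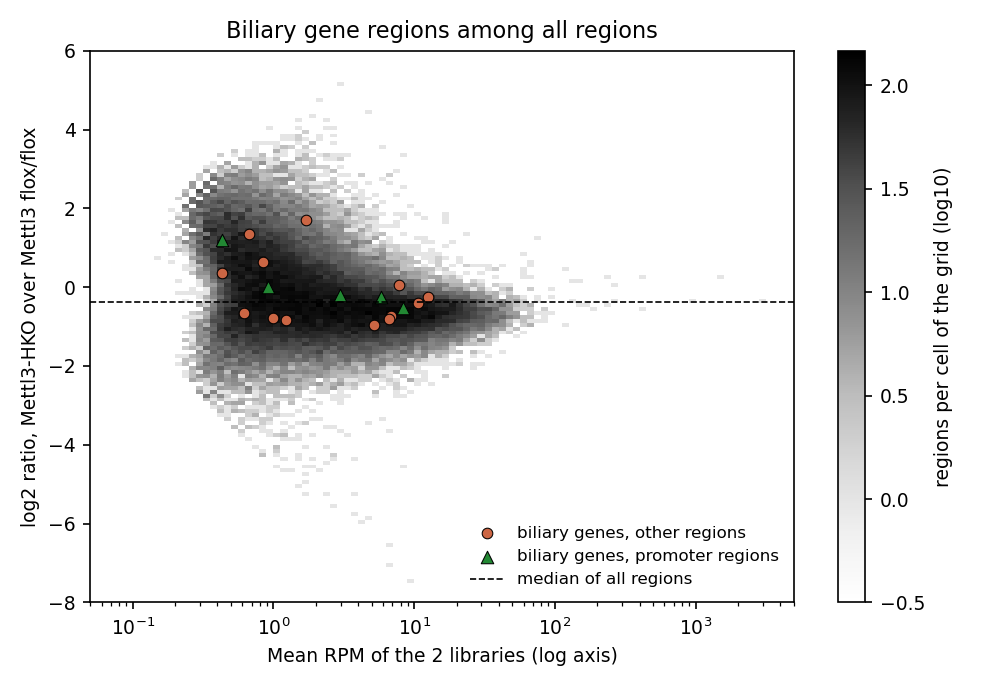
Log2 ratio of Mettl3-HKO to control (y axis) against the mean RPM of both libraries (x axis, log) for all 69549 regions, in grey by their number, with the 13 other regions (circles) and 5 promoter regions (triangles) of the biliary genes on top. The dashed line is the median of all regions, −0.38. The biliary regions lie within the cloud of all regions, and the highest ratio, 1.71 at Krt8, is of a region with 0.795 and 2.60 RPM.

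Other genes of the biliary programme were examined as 6 lists of 54 genes in all. Of these, 47 had a region and 38 a promoter region. Over their 180 regions the median log2 ratio was −0.44, and 10% of the regions were higher and 18.9% lower by 2-fold or more, against 13.2% and 18.3% of all regions. These shares differed between lists, each of 20 to 41 regions. They were 9.76% and 29.3% for transcription factors, 5.56% and 11.1% for Notch and 10% and 10% for YAP and TEAD. For transport and cilium they were 4.55% and 36.4%, for epithelial junction and surface 28% and 4%, and for ductular reaction signals 5.56% and 19.4%. By the strongest promoter region of each gene, 1 of 38 was at least 2-fold higher (2.63%) and 4 were at least 2-fold lower (10.5%), against 4.07% and 16.3% of all promoter regions. The medians of the promoter ratios were −0.46 for 6 biliary transcription factors, −0.42 for 7 Notch pathway genes, −0.30 for 7 YAP and TEAD genes, −0.60 for 8 biliary transport and cilium genes and −0.58 for 6 ductular reaction signals. The list of epithelial junction and surface genes had the highest median, 0.26, but from 4 genes of 9, and Cldn7 and Prom1 had no region.

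The genes whose promoter ratio differed from the promoter median by at least 1 were all above it. Sox4, a transcription factor of the SOX family, had 130 counts in control and 289 in Mettl3-HKO, a log2 ratio of 1.01 (0.71 to 1.33). Cdh1, which encodes E-cadherin of the epithelial adherens junction, had 44 and 93 counts, a ratio of 0.93 (0.41 to 1.5). Aqp1, a water channel of cholangiocytes and also of endothelial cells, had 51 and 99 counts, a ratio of 0.81 (0.32 to 1.34). Krt23, a keratin of the type I family, had 73 and 120 counts, a ratio of 0.57 (0.15 to 1.02). Summed over all regions of each gene, the ratio was 0.23 (0.033 to 0.42) for Sox4, 0.67 (0.51 to 0.83) for Cdh1 and 0.32 (0.070 to 0.57) for Krt23. That of Aqp1 fell below 0, with 620 and 574 counts over 5 regions and a ratio of −0.25 (−0.41 to −0.081). This interval held the median of all regions, −0.38. The promoter regions of 7 endothelial markers had a median of 1.60, from 0.14 at Eng to 1.78 at Stab2. All 7 had few reads, from 11 control counts at Tek to 48 at Clec4g, and regions with fewer reads had higher ratios over the whole table. The Stab2 promoter region had 13 and 52 counts, and its 4 regions together had 661 and 448, a ratio of −0.70 (−0.87 to −0.52). All 8 markers together had 1736 and 2399 counts in their regions. Their part in the Aqp1 value was not tested.

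Promoter ratios above 0 were found for 1 of 7 Notch pathway genes and 3 of 7 YAP and TEAD genes. The remaining transport and cilium genes with a promoter region were all below 0. Jag1, a Notch ligand, had −1.03 (−1.12 to −0.94), and the Notch targets Hes1, Hey1 and Nrarp had −0.25 (−0.44 to −0.053), −0.83 (−0.94 to −0.72) and 0.27 (−0.35 to 0.92). The transcriptional coactivator Yap1 had −0.86 (−0.96 to −0.76), the lowest of its list, and Tead4, a DNA-binding partner of YAP, had the highest, 0.41 (0.089 to 0.73). Of the YAP targets in the list, Ccn1 had 0.18 (0.040 to 0.32), Ccn2 0.29 (−0.032 to 0.62) and Amotl2 −0.30 (−0.43 to −0.18), and Ankrd1 had no region. Over all 5 regions Ccn1 had −0.22 (−0.31 to −0.13), below 0 where its promoter region was above. Pkhd1, which encodes fibrocystin of the biliary cilium, had the lowest promoter ratio of the 6 lists, −1.52 (−1.84 to −1.22), and Slc10a2, a bile acid transporter, had −1.21 (−1.38 to −1.04). Cftr, the chloride channel of cholangiocytes, had no region. The genes of this paragraph were named after their values were seen.

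**Figure D5:**
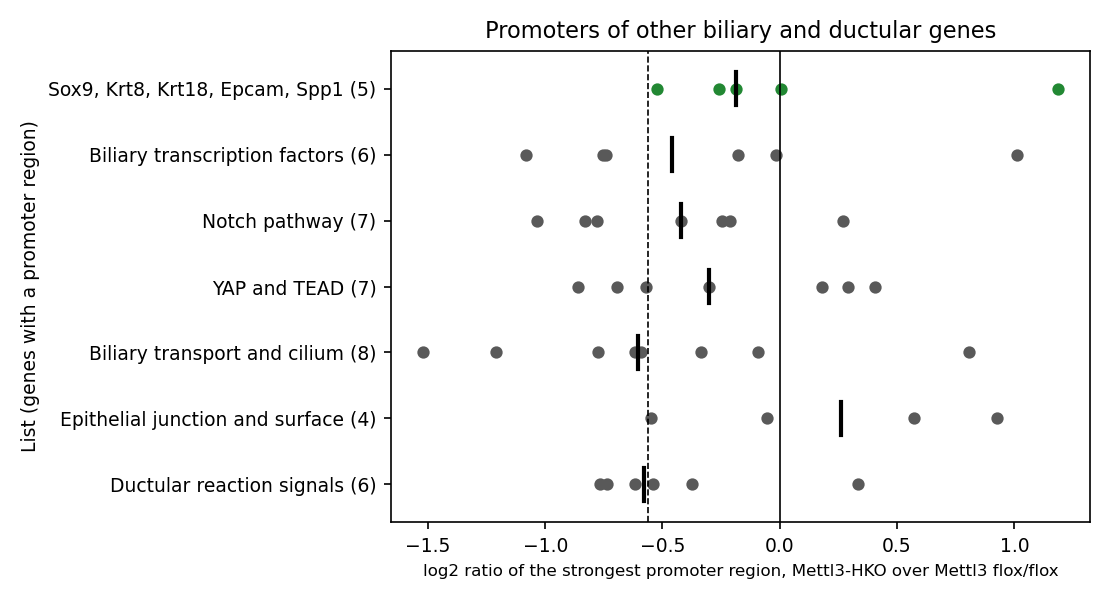
Log2 ratio of the strongest promoter region of each gene (points, x axis) for the 5 listed genes with a promoter region (green) and the 6 other lists (grey), by list (y axis, with the number of genes). Short black lines mark the medians, the solid line stands at 0 and the dashed line at the median of all promoter regions, −0.56. The green points run from −0.52 to 1.19, and the point at 1.01 is Sox4.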

How the data were processed

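ATAC-seq of liver was analysed for 1 library per group, each pooled from 4 mice. Per the study's methods, the authors trimmed reads with skewer, aligned them with BWA to GRCm38 and removed mitochondrial and improperly paired reads. They called MACS2 peaks with all duplicate reads kept. How reads on the merged regions were counted is not given in the sources used here. If duplicates were counted too, the counts are less independent than the intervals assume. The authors deposited for each region raw counts, RPM (the count plus 1, scaled to library totals that were recovered from the values), a fold enrichment ratio over the genome mean and a log2 ratio of their own, which was not used. Of 74821 rows, 5272 repeated a region and were left out. Starts were converted to count from 1.

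Log2 ratios were computed from counts with 1 read added, and from summed counts without. Nothing was tested across mice. The interval code was tested on simulated data. The genes and lists were chosen with earlier results of these data known. All 8 genes are named with every region, and of the other lists those genes whose strongest promoter region (by mean RPM) differed by at least 1 from the promoter median, at most 4 per list. Further genes of these lists were named after their values were seen, as stated there. Some genes of these lists are not reported here by name. Classes by count and regions past 3′ ends were chosen after the values were seen. Symbols were taken from the table, with Cyr61 and Ctgf for Ccn1 and Ccn2. Sequences are from RefSeq, GRCm38.p6. Scripts ran in Python 3.11.15, with scipy 1.17.1 for the intervals, pandas 2.3.3 and numpy 2.4.6 for tables, and matplotlib 3.10.9 for plots.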

Additional observations from a re-analysis of the deposited data

How the results depend on the processing

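The sign of the summed and median ratios depended on the scaling. The log2 ratio of the summed counts of all 18 regions went from −0.35 to 0.028 relative to the median region, 0.30 relative to the strongest 10% of promoter regions and 0.16 when scaled to the counts in regions. That of the promoter regions went from −0.32 to 0.056, 0.33 and 0.19 under these scalings, and the median of the 18 regions from −0.25 to 0.12, 0.39 and 0.26. Among genes whose interval excluded 0, the sum of Sox9 (0.076 and 0.35) and the Krt8 promoter region (0.12 and 0.39) changed sign under the first and second of these, and the sums of Krt8 (0.21) and Krt18 (0.22) and the Sox9 promoter region (0.12) under the second. These shifts are common to all regions. With regions that have a peak in both libraries, the summed ratio was −0.42, the median −0.40 and no region was at least 2-fold higher (0, from 3, against 2.91% of all such regions), since the 3 have a peak in the Mettl3-HKO library alone. With at least 50 counts the median was −0.33. Both with at least 50 counts and with 10 reads added, 2 regions were at least 2-fold higher, without that of Spp1, against 10.6% and 8.59% of all regions so treated. The promoter sum was −0.54 within 2 kb, where regions of Krt8 and Krt18 join. At 1.5-fold, 6 of the 18 regions counted as lower, against 0 at 2-fold, and 4 as higher, beside 38.8% and 20.8% of all regions. Without Krt8 and Krt18, a choice made after the data were seen, the summed ratio was −0.15 and the median 0.046. That summed ratio was 0.23 relative to the median region. No paired analysis was possible because each group has 1 library.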

Other observations

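Assignment to the closest TSS leaves out regions near the listed genes that are closer to another gene, and these were examined after the data were seen. Upstream of Sox9, 4 regions between 41.9 and 60.9 kb from the gene are closest to a gene without a symbol in the table. On chromosome 11 from 112739672 to 112740277 there were 117 counts in control (Mettl3 flox/flox) and 29 in Mettl3-HKO, a log2 ratio of −2.11. The region from 112732085 to 112732914 had 374 and 131 counts, a ratio of −1.64, that from 112720518 to 112721358 had 354 and 162, a ratio of −1.26, and that from 112728232 to 112728535 had 103 and 60, a ratio of −0.91. All 4 were thus lower than any region assigned to Sox9 itself, of which the lowest was −0.52. The fifth and closest, 20.1 kb past the gene from 112807839 to 112808458, had 105 and 110 counts, a ratio of −0.069 (−0.47 to 0.33). Near Cd24a, 8 regions within 100 kb are closest to other genes, with a median of −1.03, and 4 of them were at least 2-fold lower, against 18.3% of all regions. The lowest, from 43517893 to 43518238 on chromosome 10, had 104 and 37 counts, a ratio of −1.60, and 1 was higher, from 43537698 to 43538022, with 109 and 197 counts and a ratio of 0.71 (0.37 to 1.07). Within 100 kb of Krt7, the 3 regions listed had log2 ratios of 0.36 to 0.96, from 22 to 33 control counts each. Of the 13 regions near Krt8 and the 12 near Krt18, many of them shared, the medians were −0.57 and −0.60, from −1.84 in both to 1.86 and 0.24, and the highest had 6 and 27 counts. The 3 near Epcam had a median of −0.19 and the 6 near Spp1 of −0.36, from −1.81 to 0.54. Whether any of these regions acts on the listed genes was not tested.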
